A study of Homo sapiens with 4 samples.

Results

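The mitochondrial ribosome reads the few messages that mitochondrial DNA encodes, and all of its proteins are made from nuclear genes and imported. The genes described here are the 78 whose symbol starts with MRPL or MRPS, followed by a number and at most 1 letter from A to C. The rule uses the symbol and no measured value, but the family was picked with earlier results of these data known. It was applied to the 19314 genes listed, of which 16595 had a value above 0 in any library. All 78 had values in all libraries. RNA was sequenced from U87, an established astrocytoma line from a human malignant glioma. The PTP2 group (n = 2) is labelled as a PTPRN knockdown, and the control group is labelled SCR (n = 2). Per the study's methods, the knockdown used short hairpin RNAs, so the libraries hold 1 knockdown group and the scrambled control, and no second hairpin was compared here. Nothing in the labels says that replicates were separate cultures, so p-values measure the spread between these libraries, which may be technical.

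In protein synthesis, the small subunit decodes the message and the large subunit joins the amino acids. Compared with the bacterial ribosome, the mitochondrial ribosome has less RNA and more protein, and many of its proteins have no bacterial relative. Its products are core subunits of the respiratory chain and ATP synthase, so the particle ties nuclear gene expression to oxidative phosphorylation. By their known place in the particle, 51 of the 78 belong to the large subunit and 26 to the small. The proteins of MRPS30 and MRPS18A sit in the large subunit in spite of their S names. The protein of MRPS36 is now known as a subunit of the oxoglutarate dehydrogenase complex. It was counted apart in the splits by subunit and origin, but stays in all values over the 78. Homologues of bacterial ribosomal proteins made up 48 members, and 29 were mitochondria-specific.

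The level of the targeted gene was examined first. PTPRN was at 12.1 and 11.7 FPKM (fragments per kilobase of transcript, scaled to the reads of the library) in the PTP2 libraries and at 84.8 and 85.0 in the SCR libraries. The groups were far apart, with a log2 fold change of -2.74 (SE 0.03, limma adjusted p = 0.000148). Depth was estimated from the steps between low FPKM values at 18100000 reads for each PTP2 library and at 19600000 and 18100000 for SCR. Between 11080 and 11252 genes reached 1 FPKM in a library. Of the glioma or astroglial markers, VIM and CD44 were abundant. GFAP was at 0.55 FPKM or less, ALDH1L1 at 0.09 or less and S100B at 0.05 or less in every library. AQP4 was not among the tested genes. Some of these markers differed between the groups, with log2 fold changes of 1.25 for VIM, 1.05 for CD44 and 0.67 for SLC1A3. GFAP (-0.37) and NES (-1.78) were lower in PTP2 on this scale. The growth protocol in the labels names the brain endothelial line hCMEC/D3, but the 8 endothelial markers summed to 3.30 to 4.59 FPKM per library. The highest of them was PECAM1, at 1.21 to 2.50 FPKM, and CDH5 and CLDN5 were at 0.03 or less. PECAM1 (-0.62) and VWF (-0.89) were lower and KDR (0.47) and TEK (0.41) higher in PTP2 on the log2 scale. Myeloid markers summed to 5.11 to 6.99 FPKM and epithelial markers to 0.62 to 1.13, and both sums were lower in PTP2. The part of the markers in the results was not tested.

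The promoters of the members are shown by the 30 bases around a short motif that many of them hold. In RefSeq promoters (GRCh38.p14, 250 bases before to 50 after the start), which matched 70 of the 78 members, the letters AAGATGGC or their reverse complement, the core of the motif bound by the factor YY1, were present in 20 members (28.6%). The same letters were in 4.43% of the promoters of all 13258 tested genes with one, and in 6.75% of the 6701 expressed at least as high as the lowest member. The 5 windows below come from the members with the motif that rose most and from the only one of them that fell. Capitals mark the motif, and each line reads 5′ to 3′ on the gene's strand.
MRPS30: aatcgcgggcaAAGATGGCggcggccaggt
MRPL47: ggcaggatgtgGCCATCTTaagtgagggca
MRPL22: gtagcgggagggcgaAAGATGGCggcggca
MRPL20: ccgacccgggcAAGATGGCagcggcgctgc
MRPS24: ccgcttggcccAAGATGGCggcctccgtgt
The windows lie at chr5:44808949-44808978 (plus strand), chr3:179604712-179604741 (minus), chr5:154941093-154941122 (plus), chr1:1407260-1407289 (minus) and chr7:43869480-43869509 (minus), in this order. Of the 21 matches, 17 were on the gene's own strand, 16 were within 50 bases of the start and 10 were followed by GGC. The letters also contain ATGGC, which can be a start codon with the first bases of an alanine codon, so that a match past the start may be coding sequence. A match is a run of letters and not a measured binding site.

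Most mitochondrial ribosomal protein genes were higher in the PTPRN knockdown libraries, by small amounts. By limma at an adjusted p of 0.05 over all tested genes, 56 of 78 members (71.8%) rose and 5 (6.41%) fell. The counts fell when a library was left out, to 36 higher and 4 lower without PTP2 replicate 1, to 38 and 4 without PTP2 replicate 2, and to 34 and 3 without either SCR library. The share of all genes called higher fell as well, to 19.7% to 20.3%, and the share called lower to 17.4% to 17.8%. With all libraries, 30.8% of all genes tested were called higher and 27.1% lower. Since the members were well expressed, with mean levels from 5.81 to 297 FPKM, the 8010 genes at or above the lowest member are the nearer background. Of these, 45.0% were called higher and 32.4% lower, so the share of risers among the members was above both backgrounds and the share of fallers below both. The median log2 fold change of the 78 members was 0.39, against 0.01 over all genes tested and 0.10 over the 8010. Changes ranged from -1.06 to 1.30. The members did not move by 1 common amount, since their changes had an SD of 0.40 while the median SD between replicates was 0.055 on the same scale. FPKM are relative to all RNA of a library, and in a bulk sample fewer cells making a message cannot be told apart from less of it in each cell.

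**Figure D1:**
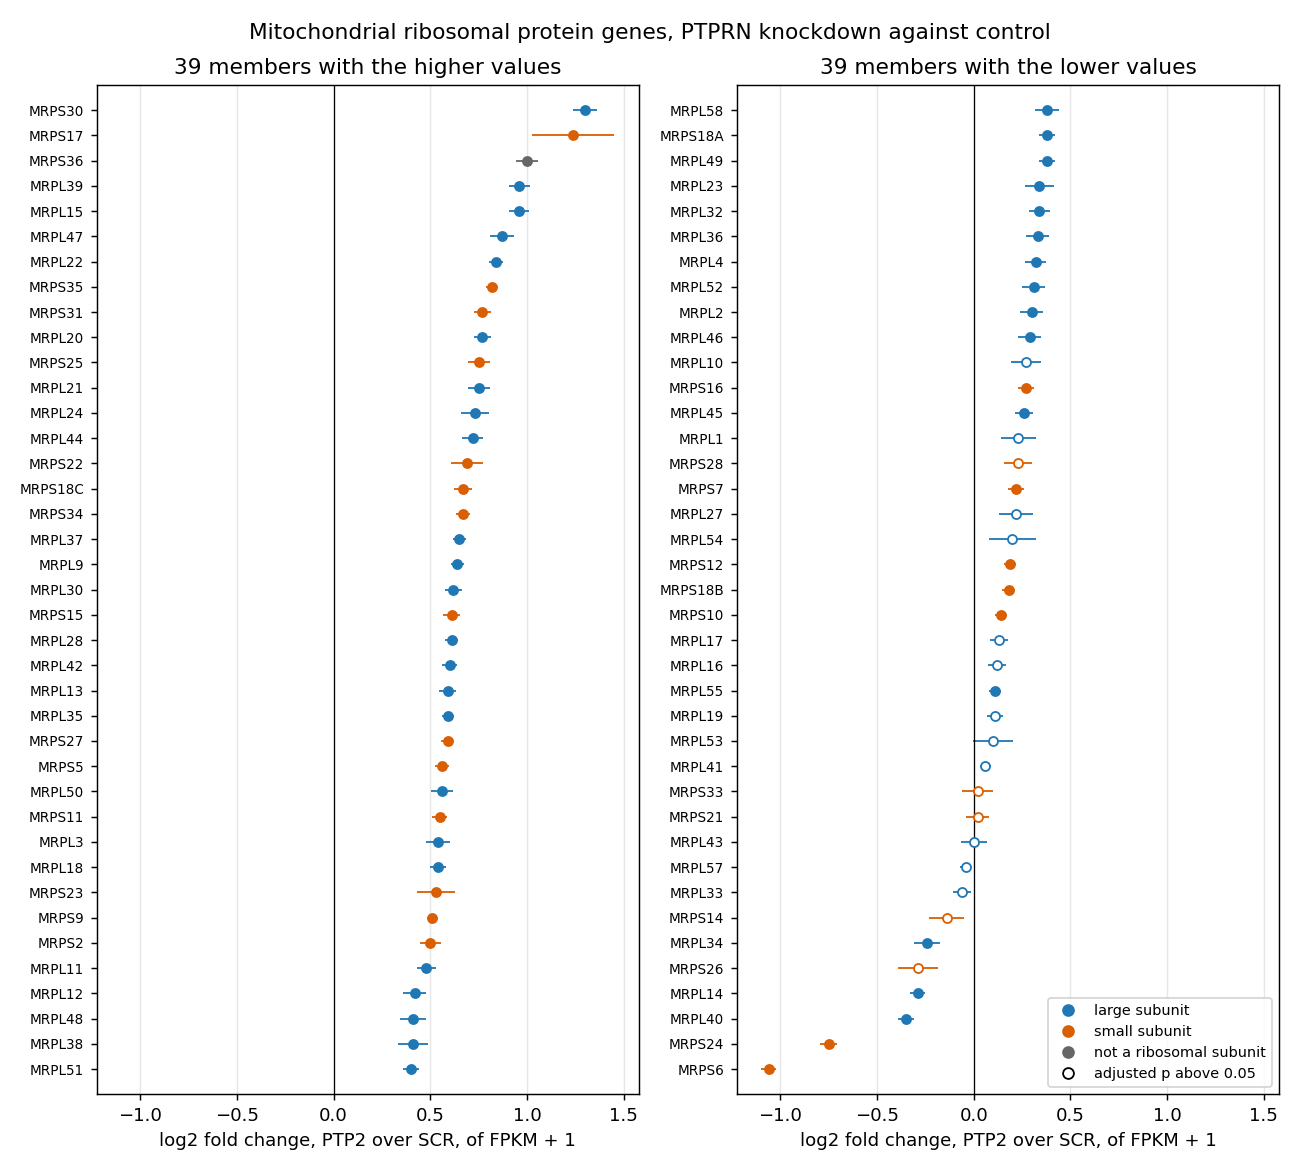
The log2 fold change (PTP2 over SCR, of FPKM + 1) of each of the 78 members, with bars of 1 SE and colours for the subunit. Open points did not pass an adjusted p of 0.05, and most points lie to the right of 0 in both subunits.

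The values behind these calls were also compared library by library, which is a description of the same data. Both PTP2 libraries were above both SCR libraries for 64 members and below both for 8, and the groups overlapped for 6. Over all genes tested these shares were 39.7% above and 35.8% below, and over the 8010 genes at the members' level 52.8% and 38.6%. Few changes were large: 28 members were at least 1.5 times higher by their mean FPKM, and on the log2(FPKM + 1) scale of the test, MRPS30 and MRPS6 passed a fold change of 2 with an adjusted p of 0.001. By the ratio of mean FPKM, 4 members passed both limits, MRPS36 and MRPL39 besides. The shares of all genes past these cuts of the ratio of mean FPKM were not counted. On the scale of the test, 6.69% of all genes and 9.41% of those at the members' level passed. On that scale neither MRPS30 nor MRPS6 passed at a pseudocount of 0.1, with the replicate number as a block, or with any library left out.

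Genes of the large and small subunits had like shares of risers. Of the 51 large subunit genes 36 rose and 3 fell, with a median log2 fold change of 0.38, and of the 26 small subunit genes 19 rose and 2 fell, with a median of 0.51. Bacterial homologues and mitochondria-specific genes also had like shares, 34 of 48 and 21 of 29 risers, with medians of 0.34 and 0.41. The 9 mitochondria-specific genes of the small subunit had the highest median of the 4 classes, 0.67, with 7 higher and none lower. The 17 small subunit homologues had the lowest, 0.23. These differences were not tested. Among the 8010 genes at the members' level, 45.0% rose and 32.4% fell, with a median log2 fold change of 0.10.

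MRPS30, a mitochondria-specific protein of the large subunit, had the largest rise. Its level was 23.78 and 24.99 FPKM in PTP2 and 8.83 and 9.82 in SCR, a log2 fold change of 1.30 (SE 0.06, limma adjusted p = 0.000620). MRPS30 lies at chr5:44808925-44815514, plus strand (GRCh38, as the deposited table places it). The groups were separated by more than the spread within either. MRPS17, the homologue of a protein that binds the RNA of the bacterial small subunit, was at 8.26 and 8.78 FPKM against 2.30 and 3.89. It was the least abundant member, and its SCR libraries were well apart, with 24 estimated reads in the first. The log2 fold change was 1.24 (SE 0.21, limma adjusted p = 0.0120), and the call was lost when either PTP2 library was left out (adjusted p = 0.137 and 0.148). MRPS36, the oxoglutarate dehydrogenase subunit, was at 17.65 and 18.01 FPKM against 8.86 and 8.01, a log2 fold change of 1.00 (SE 0.06, limma adjusted p = 0.000801).

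Of the next 7 risers, 5 build the large subunit. MRPL15, a homologue of a bacterial core protein, was at 43.5 and 40.6 FPKM in PTP2 against 21.7 and 20.6 in SCR. MRPL39, which has no bacterial relative, was at 32.1 and 30.6 against 16.3 and 15.0 FPKM. Both changed by 0.96 on the log2 scale (adjusted p = 0.000760 and 0.000831), and neither overlapped between groups. MRPL47 was at 43.3 and 42.7 FPKM against 24.3 and 21.8, a log2 fold change of 0.87. MRPL22, whose bacterial homologue lines the tunnel through which the new chain leaves, was at 13.8 and 14.3 FPKM against 7.24 and 7.56, a log2 fold change of 0.84. MRPL20 was among the abundant members, at 102 and 103 FPKM against 61.63 and 57.55, a log2 fold change of 0.77.

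The small subunit added MRPS35 and MRPS31, both mitochondria-specific. MRPS35 was at 45.9 and 45.2 FPKM in PTP2 against 25.7 and 25.1 in SCR, a log2 fold change of 0.82 (SE 0.03, adjusted p = 0.000442). MRPS31 was at 14.2 and 14.8 FPKM against 8.24 and 7.87, a log2 fold change of 0.77 (SE 0.04, adjusted p = 0.000735). In both, the replicates lay close together and the groups did not overlap.

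**Figure D2:**
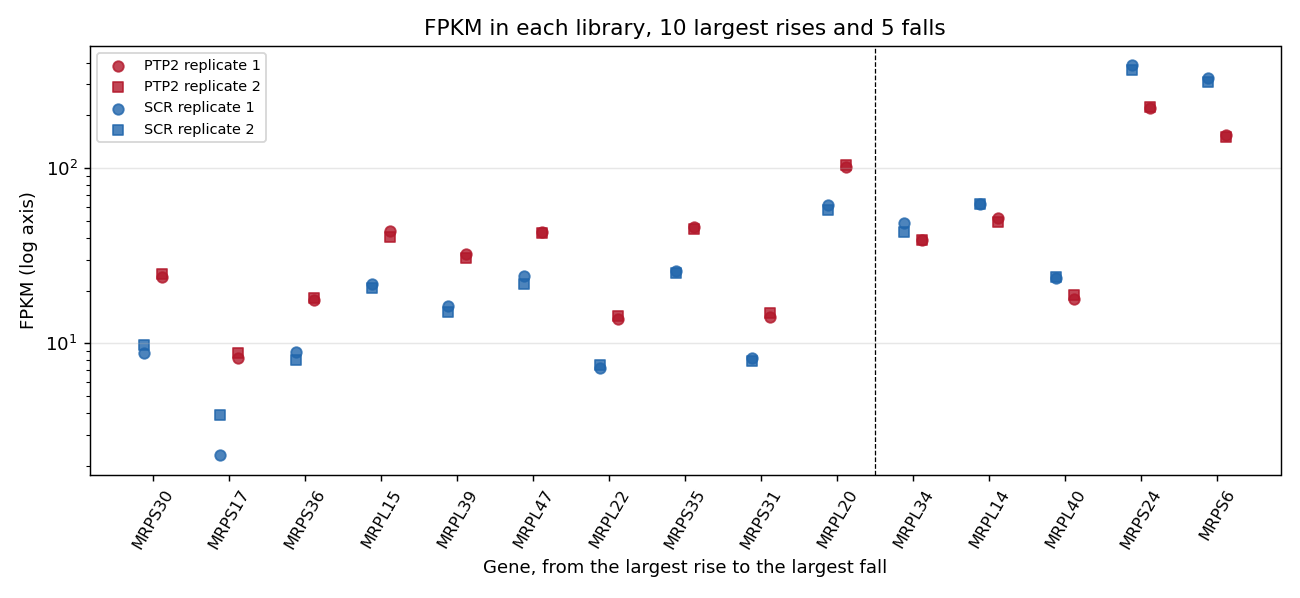
FPKM in each of the 4 libraries (log axis) for the 10 members with the largest rises and, right of the dashed line, the 5 that fell. Red points are PTP2 and blue points SCR, circles replicate 1 and squares replicate 2, and within each gene the 2 colours do not mix.

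The 5 members that fell included the most abundant pair. MRPS24 is the mitochondrial counterpart of a small subunit protein at the entry of the message. Its level was 220 and 223 FPKM in PTP2 and 385 and 360 in SCR, a log2 fold change of -0.75 (SE 0.05, limma adjusted p = 0.000915). MRPS6, a small subunit homologue, was at 154 and 151 FPKM against 326 and 312, a log2 fold change of -1.06 (SE 0.04, limma adjusted p = 0.000408). These were the members with the 2 highest mean levels, and both fell in every alternative and with every library left out in turn.

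A gene that lies within MRPS6 moved the same way. SLC5A3, a myo-inositol transporter gene on the same strand as MRPS6, was at 14.7 and 16.1 FPKM in PTP2 and 50.2 and 54.8 in SCR, a change of -1.71 on the log2 scale (adjusted p = 0.000485). The part of shared reads in the fall of MRPS6 was not tested. MRPS24 overlaps the read-through gene URGCP-MRPS24, which was at 5.40 and 3.09 FPKM against 4.04 and 1.7 (log2 fold change 0.47, adjusted p = 0.400). Its level was small beside that of MRPS24, and its libraries overlapped between groups. MRPS6 spans chr21:34073523-34143034 (plus strand) and MRPS24 spans chr7:43866558-43869546 (minus strand) on GRCh38.

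The other falls were small and belonged to the large subunit. MRPL40, mitochondria-specific, was at 17.9 and 18.9 FPKM in PTP2 against 23.6 and 24.0 in SCR, a change of -0.35 on the log2 scale (adjusted p = 0.00403). MRPL14 was at 52.1 and 49.5 FPKM against 62.45 and 62.09, a change of -0.29 on the log2 scale (adjusted p = 0.00627). Genes on the opposite strand that overlap them were also lower: the change was -0.50 on the log2 scale for HIRA, a histone chaperone gene over MRPL40 (adjusted p = 0.00207), and -0.36 for TMEM63B over MRPL14 (adjusted p = 0.00538). Whether counting used the strand is not given in the sources used here, so reads of such pairs cannot be told apart. MRPL34 was at 38.7 and 38.8 FPKM against 48.8 and 43.4, a change of -0.24 on the log2 scale (adjusted p = 0.0445), and ABHD8 opposite it had one of 0.03 (adjusted p = 0.725). The calls of MRPL40 and MRPL14 were lost without either SCR library (adjusted p from 0.0636 to 0.0815), and that of MRPL34 without either PTP2 library (0.240 and 0.233).

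MRPL34 was the member nearest the threshold on its inner side and MRPL10 on its outer side. MRPL10, a homologue of the protein at the base of the ribosomal stalk, was at 23.5 and 21.7 FPKM against 19.7 and 17.4 (log2 fold change 0.27, adjusted p = 0.0523). The libraries of MRPL10 did not overlap between groups. MRPL10 passed with the replicate number as a block (adjusted p = 0.0182), with a minimum FPKM of 1 (0.0138) and with an eBayes trend (0.0410).

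Overlap with other genes was common. Of the 78 members, 38 overlap another coding gene in GENCODE 29, 13 on the same strand and 26 on the opposite one. Members that rose also overlap genes that changed, in either direction. On the log2 scale DNAJC9, on the strand of MRPS16, changed by 0.87 and FAU, opposite MRPL49, by 0.49. KLC4, opposite MRPL2, changed by -0.92 and PPP1R10, opposite MRPS18B, by -0.52. The part of shared reads in the rises was not tested. In addition, 34 members have pseudogenes named after them, 75 in all, among them 8 of MRPS21, 5 of MRPS36 and 4 of MRPS17. The values of these members are uncertain, since reads may have been split between near-identical copies. MRPS17 also overlaps a gene listed as GBAS (an older name of NIPSNAP2), at 15.4 and 13.7 FPKM in PTP2 against 17.8 and 16.6 (log2 fold change -0.23, adjusted p = 0.0631).

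Levels of the members spread over a wide range. After MRPS24 and MRPS6, the highest mean FPKM belonged to MRPL51, MRPL41 and MRPS15. MRPL51, mitochondria-specific, was at 213 and 226 FPKM in PTP2 against 165 and 167 in SCR, a change of 0.40 on the log2 scale (adjusted p = 0.00338), and this call was lost without either SCR library (adjusted p = 0.0679 and 0.0643). MRPS15, the homologue of an early-binding small subunit protein, was at 115 and 107 against 72.4 and 72.2 FPKM, a log2 fold change of 0.61. MRPL41 did not pass the test, at 94.5 and 93.8 FPKM against 91.2 and 89.7 (log2 fold change 0.06, adjusted p = 0.186), though it did with length and GC trends removed (0.16, adjusted p = 0.0130). Of the highest members, then, 2 fell, 2 rose and 1 did not pass.

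At the low end, after MRPS17, came MRPL19, MRPS25, MRPL57 and MRPL42. MRPS25 rose from 5.35 and 5.03 FPKM to 8.99 and 9.82 (log2 fold change 0.75, adjusted p = 0.00152). MRPL42 rose from 5.65 and 5.94 to 9.46 and 9.10 FPKM (log2 fold change 0.60, adjusted p = 0.00115). Both encode mitochondria-specific proteins. MRPL19 was at 7.46 and 7.32 FPKM against 6.55 and 7.0 (adjusted p = 0.10), and MRPL57 at 7.20 and 7.24 against 7.41 and 7.48 (adjusted p = 0.326). Neither passed the test.

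MRPS18A, MRPS18B and MRPS18C are paralogs that descend from 1 bacterial protein and take different places in the particle. MRPS18C had the largest change of these paralogs, at 31.7 and 34.2 FPKM in PTP2 against 20.4 and 20.3 in SCR (log2 fold change 0.67, SE 0.05, adjusted p = 0.00130). MRPS18A was at 54.8 and 57.5 against 43.55 and 42.36 FPKM (0.38 on the log2 scale, SE 0.04, adjusted p = 0.00334). MRPS18B was at 29.7 and 28.8 against 25.7 and 25.7 FPKM (0.18 on the log2 scale, SE 0.03, adjusted p = 0.0147). All of these paralogs rose, and the differences between their changes were not tested. MRPS18B is placed on an alternate contig of chromosome 6, and the effect of this on its level was not tested. Without either SCR library the calls of MRPS18A (adjusted p = 0.0531 and 0.0588) and MRPS18B (0.0899 and 0.0871) were lost.

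Summed over the 78 members, MRPS36 included, the transcripts took a slightly larger part of each PTP2 library. The sum was 3486 and 3408 FPKM in PTP2 and 3067 and 2962 in SCR, or 0.785% and 0.777% of all FPKM against 0.722% and 0.705%. The large subunit sum was 2318 and 2257 against 1776 and 1719, 1.31 times higher by the means. The small subunit sum was 1150 and 1132 against 1282 and 1235 and went the other way. MRPS6 and MRPS24 made up 10.7% and 11% of the member sum in PTP2 and 23.2% and 22.7% in SCR. The pair was set apart because it fell, so a higher sum of the rest follows in part from that choice. Without the pair, the small subunit sum was 776.5 and 758.9 FPKM in PTP2 and 570 and 563 in SCR, 1.36 times higher. The sum over 76 members was 1.32 times higher, or 0.701% and 0.692% of all FPKM against 0.555% and 0.545%. The summed FPKM of all genes tested was itself 1.05 times higher in PTP2.

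**Figure D3:**
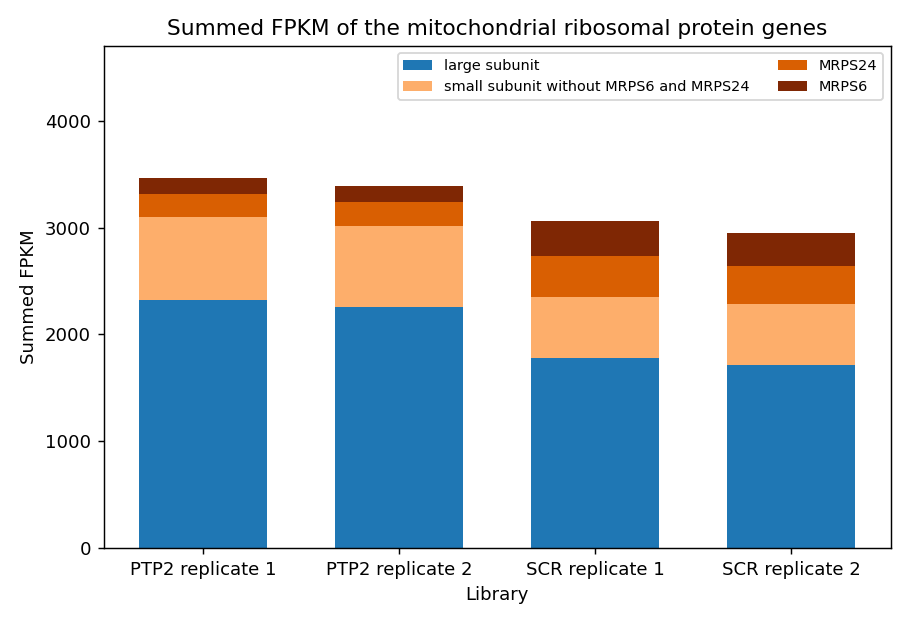
Summed FPKM of the large subunit genes, the small subunit genes without MRPS6 and MRPS24, and these genes on their own, in each library (MRPS36 is left out). The blue and light segments are taller in PTP2, while the dark segments of MRPS24 and MRPS6 are shorter.

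Proteins of the particle that carry other names were examined as a separate list of 5. AURKAIP1, a small subunit protein, rose from 69.9 and 69.6 FPKM in SCR to 115 and 120 in PTP2 (log2 fold change 0.74, adjusted p = 0.000599). DAP3, a GTP-binding protein of the small subunit, rose by 0.53 (adjusted p = 0.00380) and PTCD3 by 0.18 (adjusted p = 0.0176) on the log2 scale. CHCHD1 (0.16, adjusted p = 0.142) and GADD45GIP1 (0.06, adjusted p = 0.220) did not pass. The list had 3 risers (60%) and no faller, with a median of 0.18. Of all genes at the members' level 45.0% rose and 32.4% fell, and with 5 genes nothing is read from the difference.

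Genes of the wider pathway moved in both directions. Of 85 genes in 6 lists of the pathway, 50 (58.8%) rose and 14 (16.5%) fell, with a median log2 fold change of 0.25. These lists include the 5 particle proteins above and the regulators of mitochondrial biogenesis given below. Of all genes tested 30.8% rose and 27.1% fell, and of those at the members' level 45.0% and 32.4%. With 1 library left out, fewer of the 85 were called in either direction, and fewer of all genes tested were called too. Among 17 translation factors 11 (64.7%) rose and 2 fell (median 0.33). MRRF, which recycles ribosomes after termination, had a log2 fold change of 0.86, the release factor gene MTRF1 of 0.78 and the recycling factor gene GFM2 of 0.72. The fallers were GUF1, an elongation factor gene (-0.70), and C6orf203 (-0.38). The lowest of these 5 levels was above 4 FPKM in all libraries, and none overlapped between groups.

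Of 22 assembly factors 12 (54.5%) rose and 4 (18.2%) fell (median 0.28), against 45.0% and 32.4% of genes at the members' level. GTPBP10, a GTPase of large subunit assembly, was at 5.16 and 5.46 FPKM in PTP2 against 2.27 and 2.2 in SCR, a change of 0.96 on the log2 scale (adjusted p = 0.000473). YBEY (0.64) and MTG2 (0.59) followed. NOA1, a GTPase of small subunit assembly, fell with a log2 fold change of -0.39, NSUN4, which methylates the ribosomal RNA, with -0.28, and RBFA and METTL15 with -0.18 each. Assembly factors of either subunit were among those that changed.

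The enzymes that charge mitochondrial tRNAs, listed with QRSL1, GATB and GATC, which act on a charged tRNA, changed in both directions. Of 20, 9 (45.0%) rose and 5 (25%) fell, which is near the share of all genes at the members' level for the risers and near that of all genes tested for the fallers, and their median was 0.06. QRSL1 (0.54), RARS2 (0.49) and YARS2 (0.48) rose on the log2 scale. VARS2, the valyl-tRNA synthetase, was at 3.95 and 3.57 FPKM in PTP2 against 11.96 and 12.45 in SCR, a log2 fold change of -1.47 (SE 0.05, adjusted p = 0.000415). This was the largest fall in the 6 lists. FARS2 (-0.52) and GATB (-0.42) also fell.

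Of 12 genes for mitochondrial DNA and RNA maintenance, 8 (66.7%) rose and 1 (8.33%) fell (median 0.24). At the members' level 45.0% of all genes rose and 32.4% fell. SSBP1, the single-strand DNA-binding protein of mitochondria, was at 201 and 201 FPKM in PTP2 against 110 and 117 in SCR, a change of 0.82 on the log2 scale (adjusted p = 0.000659). TFAM, which packages mitochondrial DNA and starts its transcription, was at 9.12 and 9.12 against 6.04 and 5.83 FPKM, a change of 0.55 on the log2 scale (adjusted p = 0.000868). MTERF1 (0.51), C10orf2, the helicase gene (0.35), PNPT1 (0.30), TEFM (0.25), SUPV3L1 (0.21) and ELAC2 (0.12) also rose on the log2 scale. POLRMT, the mitochondrial RNA polymerase, was the faller, at -0.29 (adjusted p = 0.00461). TFB2M (0.23), POLG (0.06) and POLG2 (-0.08) did not pass.

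Of 9 regulators of mitochondrial biogenesis 7 (77.8%) rose and 2 (22.2%) fell (median 0.45). Of all genes tested 30.8% rose and 27.1% fell, and of those at the members' level 45.0% and 32.4%. GABPB1, a subunit of the factor also called NRF2, was at 17.25 and 18.82 FPKM in PTP2 against 8.50 and 7.67 in SCR, a change of 1.07 on the log2 scale (adjusted p = 0.00111). Its partner GABPA had a log2 fold change of 0.30 and NRF1 of 0.34. MYC was at 20.9 and 21.2 FPKM against 13.2 and 11.3, a change of 0.74 on the log2 scale (adjusted p = 0.00350). The coactivator genes PPRC1 (0.47) and PPARGC1B (0.47, at or below 0.60 FPKM in every library) and the nuclear receptor gene ESRRA (0.45) rose too. PPARGC1A fell by 0.46 at levels below 1 FPKM in every library, and YY1 fell by 0.19 on the log2 scale, from 39.5 and 42.3 FPKM to 34.8 and 36.5 (adjusted p = 0.0399).

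Cytosolic ribosomal protein genes and nuclear respiratory chain subunit genes were set beside the members. Both lists were built from symbols. The respiratory chain list also holds genes whose symbols start with ATP5, most of them ATP synthase genes, and ATP5A1 and ATP5I were among its fallers. Of 87 cytosolic ribosomal protein genes 75 (86.2%) rose and 1, RPS10, fell, with a median log2 fold change of 0.53. Of 86 respiratory chain subunit genes 59 (68.6%) rose and 5 fell, with a median of 0.32. The members, with 71.8% risers and a median of 0.39, lay between them, and these differences were not tested. Of all genes tested 30.8% rose and 27.1% fell, and of those at the members' level 45.0% and 32.4%. Whichever library was left out, fewer respiratory chain genes were called in either direction, and fewer of all genes tested were called too.

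**Figure D4:**
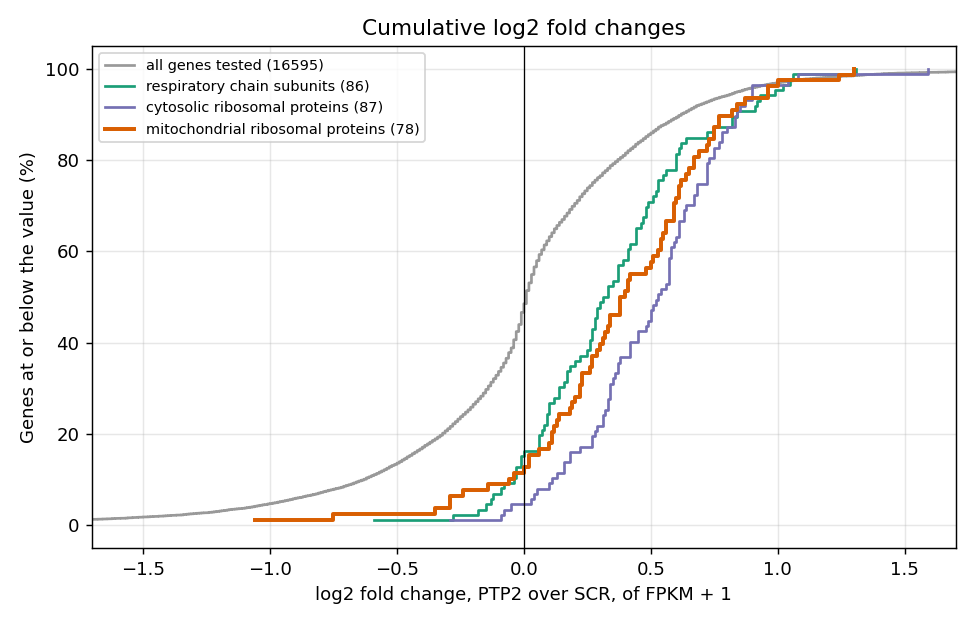
Cumulative share of genes (percent) at or below each log2 fold change (PTP2 over SCR, of FPKM + 1) for the 78 members, 2 other lists and all genes tested. The 3 lists lie to the right of all genes over most of the range, with medians of 0.39, 0.53 and 0.32 against 0.01.

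The changes of members with and without the YY1 letters were set side by side and not tested. Of the 20 members with them 19 rose and 1, MRPS24, fell, with a median log2 fold change of 0.36. Of the 50 without them 31 rose, with a median of 0.42. MRPL34, MRPL14, MRPL40 and MRPS6, which fell, were among these 50. At the members' level 45.0% of all genes rose and 32.4% fell. The letters CCGGAAGT, a motif of ETS factors such as GABPA, were in 15.7% of member promoters against 7.21% of all and 10.8% at the members' level. GCGCATGC, the core of the NRF1 motif, was in 8.57% against 4.72% and 6.19%, and the TATA letters TATAAA in 4.29% against 7.68% and 5.06%. Both strands were searched for each motif. With the ETS letters 8 of 11 members rose, and without them 42 of 59. For the NRF1 letters these were 5 of 6 and 45 of 64, and for the TATA letters 2 of 3 and 48 of 67. Of the 70 members with a promoter, 42 held none of the first 3 motifs.

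The promoters of the members with the largest rise and fall differed in base composition. A stretch of 90 bases, from 150 to 61 bases before the RefSeq start, had a GC content of 47.8% with 4 CG pairs in MRPS30 (chr5:44808797-44808886, plus strand). The same stretch of MRPS6 (chr21:34073428-34073517, plus strand) had a GC content of 91.1% with 19 CG pairs. They are given here 5′ to 3′ on the gene's strand, and neither holds the YY1 letters or the NRF1 and ETS letters given above.
MRPS30: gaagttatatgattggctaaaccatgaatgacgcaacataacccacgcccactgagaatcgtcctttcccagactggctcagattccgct
MRPS6: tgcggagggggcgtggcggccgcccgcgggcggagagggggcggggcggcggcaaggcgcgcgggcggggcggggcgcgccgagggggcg
Over the 78 members, the log2 fold change had a Spearman correlation of -0.26 with the GC content and 0.18 with the length of the transcript, and of -0.31 with the SCR level, which shares its libraries with the fold change. Across 8000 genes at the members' level the values were -0.24 for GC content and -0.12 for length. These are correlations across genes, which are not independent replicates.

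Many members share a promoter region with a gene that runs the other way. Within 1000 bases, 18 members had such a neighbour. MRPL46 and MRPS11, which start 34 bases apart, both rose (log2 fold changes 0.29 and 0.55). Of 16 neighbours outside the family with a value, 9 (56.2%) rose, 3 (18.8%) fell and 4 did not pass, with a median of 0.55. At the members' level 45.0% of all genes rose and 32.4% fell, and with 16 neighbours nothing is read from the difference. The gene for a complex I subunit next to MRPL47, NDUFB5, had a log2 fold change of 0.51 and NDUFS6, next to MRPL36, one of 0.93. TCP1, a chaperonin subunit gene next to MRPL18, had one of 0.85. Some pairs went apart: HELQ (-0.35) fell beside MRPS18C (0.67), ZNF189 (-0.40) beside MRPL50 (0.56), and PNPLA7 (-0.91) beside MRPL41, which did not pass.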

How the data were processed

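The authors sequenced U87 RNA single-end with 50-base reads on a BGISEQ-500 and deposited 1 FPKM value per gene and library. The submitters' processing notes name HISAT2 2.1.0 and the build hg19, but 85.4% of the gene starts in the table lie within 1000 bases of the RefSeq start on GRCh38.p14, so positions were read as GRCh38. The counting program and the use of strand are not given in the sources used here. The transcript length in bases was also taken from the deposited table. The 15 columns of the authors' own comparisons (fold changes, p-values and q-values) were not used. No read counts were used, so the test that the design named for counts was replaced by the one it named for FPKM: limma 3.58.1 (R 4.3.3, lmFit and eBayes with default options) on log2(FPKM + 1), over the 16595 genes above 0 in any library, with Benjamini-Hochberg adjustment. Fold changes are on this scale, which understates those of low genes. All adjusted p-values in the text are from limma. With 2 libraries against 2, an exact permutation test cannot go below 0.333. The library depth was estimated from the smallest steps between FPKM values of single-transcript genes, and it limits the precision at low levels.

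The members and lists were chosen with earlier results of these data known, and the motifs were chosen after the data had been examined, so lists are given as counts and medians with no test. Named members are the 10 largest rises and the falls past an adjusted p of 0.05 with no overlap, those past a fold change of 2 and an adjusted p of 0.001, the 5 highest and 5 lowest levels, the MRPS18 paralogs and those nearest the threshold. Of the pathway lists, all genes of lists of up to 12 and otherwise the 3 largest changes in each direction are named. Genes that overlap or neighbour a member were chosen by position, and some were named after their values were seen. Overlaps were read from GENCODE 29, and promoters were matched to RefSeq by gene. Alternatives were the log of FPKM + 0.1, only genes at 1 FPKM or more in 2 libraries, a replicate block, quantile or median-ratio scaling, an eBayes trend, removal of length and GC trends, and leaving out each library. A pseudocount of 0.1 with a trend was added after seeing the data. Figures were drawn with matplotlib 3.10.9 in Python 3.11.15.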

Additional observations from a re-analysis of the deposited data

How the results depend on the processing

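With 2 libraries per group the counts of calls are limited by replication. Leaving out 1 library, where the lone one is assumed to vary like the others, gave 34 to 38 members higher and 3 to 4 lower, a median log2 fold change of 0.36 to 0.44, and 0 past a fold change of 2 with an adjusted p of 0.001. The median minus that of all genes was then 0.35 to 0.44, the pathway lists had 28 to 30 risers and 4 to 8 fallers, the respiratory chain 35 to 39 and 1 to 2, and the cytosolic ribosomal proteins 1 to 2 fallers. With the replicate block, 57 members were higher, 4 lower and 0 past the stricter limit, and 3 respiratory chain genes fell. The same-numbered libraries share only a number, with a correlation of deviations of 0.0635. At a pseudocount of 0.1, 0 members passed the stricter limit and 2 respiratory chain genes fell. With length and GC trends removed, 1 member passed it, the median was 0.35 (0.33 above all genes), and 8 respiratory chain and 3 cytosolic ribosomal protein genes fell. Quantile normalization gave a median of 0.32 (0.31 above all genes) and 6 cytosolic fallers, median-ratio scaling a median of 0.34, and the minimum FPKM of 1 a median 0.33 above all genes. Across the alternatives with all libraries, 52 to 59 members were higher and 4 to 7 lower. Over all settings 62 members stayed above 0, 9 below, and 7 had both signs. MRPL34 lost its call at a pseudocount of 0.1 (adjusted p = 0.0749) and with the replicate block (adjusted p = 0.0625). MRPL10 gained a call with the block, the minimum FPKM and both trend fits, and MRPL41 with length and GC removed. The cause was not tested. PTPRN stayed between -2.83 and -2.60 (adjusted p at most 0.0229).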
